A study of Mus musculus with 12 samples.

Results

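The genes described here encode 8 enzymes that make glutamate, take it apart or turn it into glutamine, aspartate, alanine and proline. They are Glud1, Got1, Got2, Glul, Gpt2, Aldh18a1, Pycr1 and Oat, taken by name from the 49671 genes in the deposited counts. No rule on their values was used to choose them, but earlier results of these data were known when they were chosen. The libraries come from regulatory T cells (Tregs), the Foxp3-dependent CD4 T cells that restrain immune responses, of C57BL/6 mice aged 8 weeks. Animals were either wild type (WT) or Gclc mutant. Gclc is the catalytic subunit of the enzyme that joins glutamate to cysteine in the first step of glutathione synthesis. The labels give the genotype as Gclc mutant and name neither the allele nor a promoter or Cre driver. Each genotype was profiled as nTregs, which were isolated fresh from the animals, and as iTregs, which were derived in culture from naive CD4+ T cells. There were 3 libraries per group and 12 in all, numbered 1, 2 and 3 in both WT groups and 1, 2 and 4 in both mutant groups. The labels do not say whether the 3 libraries of a group are separate mice or cultures, so every p-value here reflects variation among these libraries, part of which may be technical.

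Glutamate sits at the branch point of amino acid nitrogen. Glutaminases release it from glutamine, glutamate dehydrogenase interconverts it with alpha-ketoglutarate, and aminotransferases pass its amino group to oxaloacetate, to form aspartate, or to pyruvate, to form alanine. A separate branch reduces glutamate to pyrroline-5-carboxylate and then to proline, and ornithine can enter the same branch. Activated T cells draw on glutamine and aspartate for nucleotide and protein synthesis, and glutamate is also a direct substrate of Gclc.

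Promoter sequences of the 8 genes were taken from RefSeq (GRCm38.p6), from 250 bases before to 50 bases after each start, and all 8 were matched. Both strands were searched for TGATGNAA, the composite element bound by ATF4 with C/EBP partners in genes of amino acid limitation, for TGACNNNGC, the core of the antioxidant response element, and for CACGTG, the E box bound by MYC and MAX. TGATGNAA stood in 2 of the 8 promoters and in 3.97% of all 32851 promoters of the same length. TGACNNNGC stood in 0 of the 8 and in 12.4% of all, and CACGTG in 1 of the 8 and in 7.15% of all. The stretches of 100 bases upstream of the start that hold the 3 matches are shown because Pycr1, Got1 and Aldh18a1 are among the genes whose levels are compared here. Each is written 5′ to 3′ on the strand of its gene, which is the minus strand for all 3, with the matched element in capitals.
Pycr1: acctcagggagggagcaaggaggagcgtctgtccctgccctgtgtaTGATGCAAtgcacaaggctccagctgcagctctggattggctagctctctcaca
Got1: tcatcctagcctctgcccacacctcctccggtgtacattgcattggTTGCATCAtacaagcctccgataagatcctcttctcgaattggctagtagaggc
Aldh18a1: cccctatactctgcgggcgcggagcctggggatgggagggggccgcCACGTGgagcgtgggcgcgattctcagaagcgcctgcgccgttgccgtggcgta
The Pycr1 stretch is chr11:120643798-120643897 and its element began 103 bases before the start. The Got1 stretch is chr19:43524654-43524753, and its element began 102 bases before the start and read TGATGCAA on the opposite strand. The Aldh18a1 stretch is chr19:40588469-40588568, with CACGTG, which reads the same on both strands, beginning 59 bases before the start. No 2 matches overlapped. A match is a string of letters in the window, and binding was not measured.

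Counts summed to 28.7e6 to 39.9e6 per library, and all 8 genes were among the 17977 tested. Levels are in CPM, the share of a library's counts that falls on a gene, scaled to the usual common total after TMM correction of the library size, and log2 fold changes are given with the standard error of the edgeR fit. Gclc itself lay at 70.8 to 79.0 CPM in WT nTregs against 41.7 to 45.8 in mutant nTregs, and at 51.9 to 56.5 in WT iTregs against 18.8 to 21.0 in mutant iTregs. Foxp3 fell by 1.70 ± 0.15 in mutant nTregs and by 1.66 ± 0.15 in mutant iTregs on the log2 scale (edgeR adjusted p = 7.03e-05 and 0.000188). Summed over 7 Treg and CD4 T cell markers, WT nTregs lay at 3455.2 to 3765.3 CPM and mutant nTregs at 2492.2 to 3109.5, all below WT. WT iTregs lay at 2446.5 to 2643.4 and mutant iTregs at 2613.2 to 2837.8. Of the 7 markers, 0 were called higher and 2 lower in mutant nTregs, and 1 higher and 1 lower in mutant iTregs. Of all tested genes, 19.3% were called higher and 15.6% lower in nTregs, and 14.0% and 11.4% in iTregs. The part of the Foxp3 and marker differences in the values of the 8 genes was not tested. Mutant nTreg library 1 stood apart: its sum over 10 markers of CD8 T and NK cells was 988.3 CPM, against 142.5 and 134.1 in the other mutant nTreg libraries, 53.6 to 56.1 in WT nTregs and 35.4 to 55.5 in iTregs. Of these 10 markers 8 were higher in mutant than in WT nTregs, 0 were lower and none was at 0 in nTregs, while in iTregs 0 of 10 differed between genotypes and Ncr1, Gzma and Gzmk were at 0. The nTreg results of the 8 genes are therefore given with and without that library, and the part of these cells in them was not tested beyond that. In bulk RNA, fewer cells of a type and less RNA per cell cannot be told apart.

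Gclc mutant cells were compared with WT cells first in freshly isolated Tregs. The aspartate aminotransferases Got1 and Got2, the alanine aminotransferase Gpt2 and the proline-branch genes Aldh18a1 and Oat rose in mutant nTregs, and the glutamine synthetase gene Glul fell. Glud1 and Pycr1 did not pass the test. With 5 of 8 genes higher and 1 lower, these counts stand against 19.3% of all tested genes called higher and 15.6% called lower at an adjusted p below 0.05. In CPM, 6 of the 8 had every mutant library above every WT library, against 25.7% of all tested genes, and 1 had every mutant library below, against 22.6%. The median of the 8 log2 fold changes was 0.36, and that of all tested genes 0.04. Without mutant library 1, 6 of the 8 passed as higher and 1 as lower, with Pycr1 the gene gained. Of all tested genes, 3359 were then called higher and 2065 lower, in place of 3471 and 2798. The 5 higher genes became 2 without nTreg WT library 3 and 3 without nTreg WT library 1, nTreg WT library 2, nTreg mutant library 4 or iTreg WT library 1, and 3 when the nTreg libraries were fitted alone. Over all tested genes, the number called higher was lowest, at 2485, without nTreg WT library 1. In mutant iTregs Glud1 and Got2 rose and Pycr1 fell, and the other 5 did not pass. This is 2 of 8 higher against 14.0% of all tested genes and 1 of 8 lower against 11.4%. Libraries did not overlap for 3 of 8 genes that were higher (26.8% of all tested genes) and 2 of 8 that were lower (19.7%). The 8 genes' median was -0.03, beside 0.04 over all tested genes. With library size alone as the scaling, Glul (-0.23, edgeR adjusted p = 0.0347) and Aldh18a1 (-0.27, 0.0205) were also lower in mutant iTregs, and 35.5% of all iTreg calls were higher in place of 55.2%. In nTregs the same scaling took that share from 55.4% to 65.4%. Got2 was the 1 gene of the 8 called higher in both kinds of Treg.

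**Figure D1:**
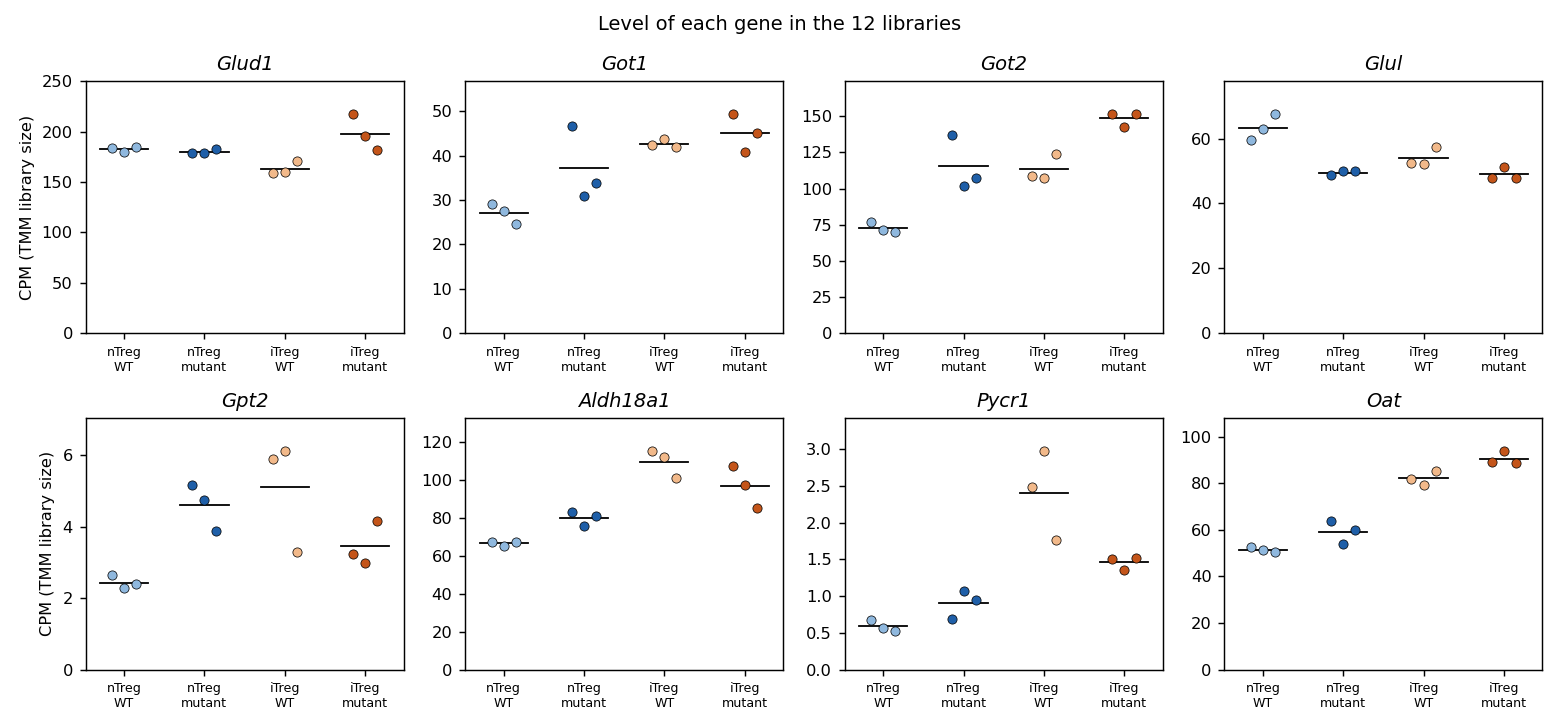
Level of each of the 8 genes in every library, in CPM on a linear axis that starts at 0, 3 libraries to a group, with a bar at the group mean. Got2 is higher in the mutant than in WT in both nTregs (102.1 to 137.2 against 70.2 to 76.6) and iTregs (142.6 to 151.7 against 107.6 to 124.0), while the iTreg groups of Gpt2 overlap.

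Glutamate dehydrogenase and glutamine synthetase act on glutamate itself. Glud1 (ENSMUSG00000021794; GRCm38 chromosome 14, 34310727 to 34345144, plus strand) encodes the mitochondrial enzyme that interconverts glutamate and alpha-ketoglutarate with ammonia. In nTregs it lay at 184.1, 179.7 and 185.1 CPM in WT cells and at 178.5, 178.7 and 182.5 in the mutant. The groups overlapped, and the log2 fold change was -0.02 ± 0.07 (edgeR adjusted p = 0.809), or 0.01 without mutant library 1 (0.928). In iTregs Glud1 lay at 158.9, 160.2 and 170.4 CPM in WT cells and at 217.5, 195.1 and 181.2 in the mutant. All 3 mutant libraries were above all 3 WT libraries, with mutant library 1 the highest. The iTreg rise was 0.28 ± 0.07 on the log2 scale (edgeR adjusted p = 0.0127), and it missed the threshold without iTreg mutant library 1 (0.21, adjusted p = 0.0608), WT library 1 (0.25, 0.0669) or WT library 2 (0.26, 0.0587).

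Glul (ENSMUSG00000026473; chromosome 1, 153899944 to 153909723, plus strand) encodes the enzyme that makes glutamine from glutamate and ammonia. It was the 1 member that fell in mutant nTregs. WT nTregs gave 59.4, 62.9 and 67.6 CPM and mutant nTregs 48.6, 50.0 and 49.9. The groups did not overlap, and the mutant libraries lay close together. The log2 fold change was -0.35 ± 0.07 (edgeR adjusted p = 0.00219), and it was -0.31 without mutant library 1 (adjusted p = 0.00533). In iTregs the values were 52.3, 52.2 and 57.3 CPM in WT and 47.7, 51.3 and 47.9 in the mutant, also without overlap but closer together. That difference, -0.14 ± 0.07, did not pass (edgeR adjusted p = 0.147). It did pass without nTreg mutant library 1 (-0.18, adjusted p = 0.0364), with library size alone (-0.23, 0.0347), with a filter of 1 CPM in 3 libraries (-0.19, 0.0491) and on the compared libraries alone (-0.18, 0.0431).

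Gls2 encodes the glutaminase best known from liver, which releases glutamate from glutamine. It was scarce but rose in both kinds of Treg. Its values were 0.407, 0.202 and 0.279 CPM in WT nTregs and 1.61, 1.12 and 0.761 in mutant nTregs, a rise of 1.96 ± 0.31 on the log2 scale (edgeR adjusted p = 0.00086). Without nTreg mutant library 1 Gls2 rose by 1.71 (edgeR adjusted p = 0.0013). In iTregs it went from 3.32 to 3.76 CPM in WT to 6.10 to 7.77 in the mutant, by 0.93 ± 0.21 (adjusted p = 0.00912). Every mutant library lay above every WT library of the same kind of Treg.

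Got1 and Got2 encode the cytosolic and the mitochondrial aspartate aminotransferase, which exchange amino groups between glutamate and oxaloacetate on either side of the malate-aspartate shuttle. Got1 (ENSMUSG00000025190; chromosome 19, 43499752 to 43524605, minus strand) lay at 29.0, 27.5 and 24.6 CPM in WT nTregs and at 46.6, 30.9 and 33.8 in mutant nTregs. The groups did not overlap, and mutant library 1 was well above the rest. The rise of 0.46 ± 0.13 (edgeR adjusted p = 0.0185) was 0.29 without that library (adjusted p = 0.0299), and it missed the threshold without nTreg WT library 3 (0.37, adjusted p = 0.0914) and on the nTreg libraries alone (0.45, 0.0637). In iTregs Got1 lay at 42.3, 43.7 and 42.0 CPM in WT cells and at 49.4, 40.7 and 45.0 in the mutant. These groups overlapped, with a log2 fold change of 0.08 ± 0.13 (adjusted p = 0.703). Scaled by library size alone, that iTreg value was -0.01.

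Got2 (ENSMUSG00000031672; chromosome 8, 95864134 to 95888547, minus strand) lay at 76.6, 71.5 and 70.2 CPM in WT nTregs and at 137.2, 102.1 and 107.3 in mutant nTregs. The gap between the groups was wide, and the rise was 0.67 ± 0.10 (edgeR adjusted p = 0.000663). Without mutant library 1 it was 0.55 (adjusted p = 0.000138). In iTregs Got2 went from 108.7, 107.6 and 124.0 CPM in WT to 151.5, 142.6 and 151.7 in the mutant, again without overlap, by 0.39 ± 0.10 (adjusted p = 0.0161). This call was lost without iTreg mutant library 1 (0.38, adjusted p = 0.056), WT library 1 (0.35, 0.0793) or WT library 2 (0.35, 0.0743). Got2 values are uncertain, because the processed pseudogene Got2-ps1 was counted at 21.2 to 47.1 CPM and reads that align to both were counted at each. Got2-ps1 rose by 0.77 ± 0.11 in mutant nTregs (adjusted p = 0.000558) and differed by 0.20 ± 0.11 in iTregs (adjusted p = 0.206), and the part of shared reads in the Got2 values was not tested.

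The shuttle's other genes and the mitochondrial carriers formed a list of 10, of which 9 were tested. In nTregs 3 rose and 0 fell, against 19.3% and 15.6% of all tested genes, and in iTregs 5 rose and 1 fell, against 14.0% and 11.4%. Slc25a13, which encodes the aspartate-glutamate carrier citrin, rose in both. It went from 5.89 to 7.33 CPM to 13.8 to 20.7 in nTregs (1.24 ± 0.16, edgeR adjusted p = 0.00032) and from 10.9 to 14.3 CPM to 21.3 to 23.2 in iTregs (0.87 ± 0.16, adjusted p = 0.00318). Without nTreg mutant library 1, its highest nTreg library, the nTreg rise was 1.06 (edgeR adjusted p = 0.00011). The matrix enzyme Mdh2 and the oxoglutarate carrier Slc25a11 also rose in nTregs. In iTregs the others that rose were the cytosolic malate dehydrogenase Mdh1, the ornithine carrier Slc25a15 and both pyruvate carrier subunits, Mpc1 and Mpc2. The glutamate carrier Slc25a22 fell in iTregs by 0.43 ± 0.10 (adjusted p = 0.0109), a call lost without iTreg mutant library 1 (-0.37, adjusted p = 0.0536) or WT library 1 (-0.41, 0.0521).

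Gpt2 (ENSMUSG00000031700; chromosome 8, 85492576 to 85527560, plus strand) encodes the mitochondrial alanine aminotransferase, which makes alanine and alpha-ketoglutarate from pyruvate and glutamate. It was a low gene in all groups. WT nTregs gave 2.65, 2.29 and 2.39 CPM and mutant nTregs 5.18, 4.75 and 3.89. Every mutant library was above every WT library, and the rise was 0.92 ± 0.23 on the log2 scale, or 1.89-fold (edgeR adjusted p = 0.00877), and 0.86 without mutant library 1 (adjusted p = 0.0238). In iTregs Gpt2 lay at 5.90, 6.13 and 3.30 CPM in WT cells and at 3.24, 2.98 and 4.16 in the mutant. WT library 3 lay among the mutant libraries. The log2 fold change of -0.56 ± 0.22 did not pass (adjusted p = 0.0799), and without that library it was -0.80 (adjusted p = 0.00908). The cytosolic form Gpt gave log2 fold changes of -0.22 ± 0.22 in nTregs and -0.41 ± 0.22 in iTregs (adjusted p = 0.465 and 0.195).

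Aldh18a1, Pycr1 and Oat lead into proline. Aldh18a1 (ENSMUSG00000025007; chromosome 19, 40550257 to 40588463, minus strand) encodes the bifunctional synthase that turns glutamate into pyrroline-5-carboxylate. It lay at 67.4, 65.1 and 67.2 CPM in WT nTregs and at 83.1, 75.9 and 80.9 in mutant nTregs, without overlap. The rise of 0.26 ± 0.08 was small (edgeR adjusted p = 0.0271) and was 0.26 without mutant library 1 (0.0339). It missed the threshold without nTreg WT library 1 (0.27, adjusted p = 0.066), 2 (0.25, 0.0868) or 3 (0.24, 0.0858), nTreg mutant library 4 (0.23, 0.0849) or iTreg WT library 1 (0.24, 0.0503). In iTregs it lay at 115.5, 112.0 and 101.2 CPM in WT cells and at 107.4, 97.5 and 85.5 in the mutant. The groups overlapped, and the difference was -0.18 ± 0.08 (adjusted p = 0.129), passing only without nTreg mutant library 1 among the libraries left out (-0.22, adjusted p = 0.0365).

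Pycr1 (ENSMUSG00000025140; chromosome 11, 120635712 to 120643769, minus strand) encodes a mitochondrial pyrroline-5-carboxylate reductase, which forms proline. It was the scarcest of the 8, with 17 to 104 counts per library. WT nTregs gave 0.679, 0.573 and 0.527 CPM and mutant nTregs 0.695, 1.07 and 0.943. Mutant library 1 lay just above the highest WT library. The log2 fold change of 0.62 ± 0.26 did not pass (edgeR adjusted p = 0.0865), and without mutant library 1 it was 0.80 (adjusted p = 0.048). In iTregs Pycr1 fell from 2.48, 2.98 and 1.76 CPM in WT to 1.5, 1.35 and 1.52 in the mutant. The groups did not overlap, and WT values were the more widely spread. The fall of -0.72 ± 0.22 (adjusted p = 0.0345) missed the threshold without iTreg mutant library 1 (-0.74, adjusted p = 0.0844), 2 (-0.67, 0.0995) or 4 (-0.75, 0.0601) or without iTreg WT library 1 (-0.71, 0.104) or 2 (-0.54, 0.156).

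Oat (ENSMUSG00000030934; chromosome 7, 132557478 to 132576398, minus strand) encodes ornithine aminotransferase, which joins ornithine to the same intermediate. It lay at 52.5, 51.2 and 50.3 CPM in WT nTregs and at 63.9, 53.8 and 60.1 in mutant nTregs. The groups did not overlap, but mutant library 2 was close to WT. Without mutant library 1 the difference was 0.18 (edgeR adjusted p = 0.0441). The rise of 0.21 ± 0.07 (edgeR adjusted p = 0.0366) missed the threshold when nTreg WT library 1 was left out (adjusted p = 0.0721), 2 (0.0947) or 3 (0.15), nTreg mutant library 4 (0.122), iTreg WT library 1 (0.0827) or 2 (0.0524) or iTreg mutant library 1 (0.0516), with no filter (0.0796) and on the nTreg libraries alone (0.106). In iTregs the values were 81.9, 79.4 and 85.3 CPM in WT and 89.0, 94.0 and 88.6 in the mutant. They did not overlap, and the difference of 0.14 ± 0.07 did not pass (adjusted p = 0.154).

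**Figure D2:**
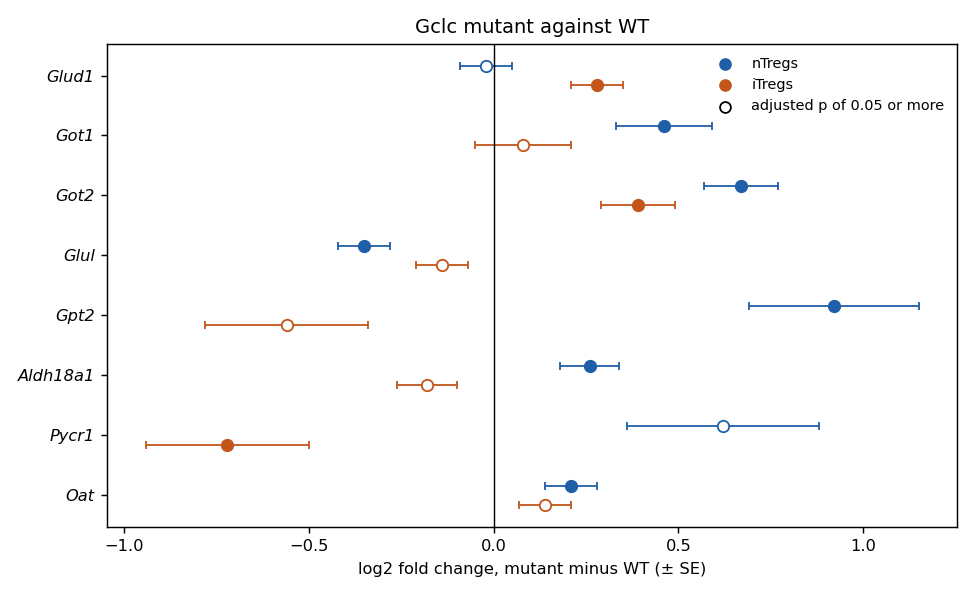
Log2 fold change of mutant against WT for each of the 8 genes, with its SE, in nTregs and in iTregs, from the edgeR fit over all 12 libraries (open points did not pass at an adjusted p of 0.05). Gpt2 lies at 0.92 in nTregs and -0.56 in iTregs and Pycr1 at 0.62 and -0.72, while Got2 lies at 0.67 and 0.39.

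Of the other proline enzymes, 5 of 6 found in the counts were tested. Pycrl, the cytosolic reductase now named Pycr3, rose in nTregs from 7.38 to 8.74 CPM to 9.92 to 11.6, by 0.43 ± 0.12 (edgeR adjusted p = 0.0159), and lost the call without nTreg WT library 1 (0.41, adjusted p = 0.0558) or 2 (0.37, 0.0661). In iTregs it differed by -0.31 ± 0.12 (adjusted p = 0.0713), passing without iTreg mutant library 4 (-0.43, adjusted p = 0.0206) or nTreg mutant library 1 (-0.35, 0.0319). Pepd, which frees proline from dipeptides, moved in opposite directions. In nTregs it rose by 0.31 ± 0.10 (adjusted p = 0.0252), which did not pass with nTreg WT library 1 left out (0.28, adjusted p = 0.0905) or 2 (0.28, 0.091), nTreg mutant library 2 (0.29, 0.0677) or iTreg WT library 1 (0.29, 0.0533). In iTregs it fell by 0.53 ± 0.10 (adjusted p = 0.00352), a call kept with each library left out. Aldh4a1, the second enzyme of proline breakdown, gave -0.36 ± 0.14 in nTregs (adjusted p = 0.061) and -0.29 ± 0.14 in iTregs (0.14). Its nTreg value passed without iTreg mutant library 2 (adjusted p = 0.032) or 4 (0.0434) or nTreg WT library 2 (-0.45, 0.0462). Prodh, the first enzyme of proline breakdown, showed no call for genotype (0.15 ± 0.21 and 0.11 ± 0.29, adjusted p = 0.623 and 0.821). The ornithine carrier Slc25a15 lay at 9.87 to 10.8 CPM in WT and 9.95 to 11 in mutant nTregs, a log2 fold change of 0.02 ± 0.09 (adjusted p = 0.864). In iTregs it rose from 26.1, 26.2 and 28.4 CPM to 55.3, 45.4 and 45.1, by 0.85 ± 0.09 (adjusted p = 0.000244).

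Whether the mutation acted differently in the 2 kinds of Treg was tested as the iTreg effect minus the nTreg effect. Both effects enter this difference, so it is no independent evidence for either. It was called for Gpt2, Aldh18a1 and Pycr1, all towards lower values in iTregs, which is 3 of 8 against 7.18% of all tested genes called lower and 0 of 8 against 6.12% called higher. Of all calls, 46.0% were higher, and 17.8% with library size alone, which shifted the median difference by -0.14. The median difference of the 8 was -0.33, beside -0.00 over all tested genes. For Gpt2 the difference was -1.48 ± 0.32 (edgeR adjusted p = 0.0122), and it lay between -1.71 and -1.32 and passed with each library left out. For Pycr1 it was -1.34 ± 0.35 (adjusted p = 0.0264). It missed the threshold without iTreg mutant library 1 (adjusted p = 0.0549) or 2 (0.0612), iTreg WT library 1 (0.06) or 2 (0.0671), nTreg mutant library 2 (0.0603) or nTreg WT library 2 (0.0656) or 3 (0.0592). For Aldh18a1 it was -0.44 ± 0.12 (adjusted p = 0.0289). This was lost without iTreg mutant library 2 (adjusted p = 0.0612), iTreg WT library 1 (0.0821) or 2 (0.0717), nTreg mutant library 4 (0.0503) or nTreg WT library 1 (0.0637), 2 (0.0758) or 3 (0.055). The other 5 did not pass: Glud1 gave 0.30 ± 0.10 (adjusted p = 0.0559), Got1 -0.38 ± 0.19 (0.192), Got2 -0.28 ± 0.14 (0.213), Glul 0.21 ± 0.10 (0.153) and Oat -0.07 ± 0.10 (0.704). Without iTreg mutant library 4, the Glud1 difference was 0.36 (adjusted p = 0.0201). Among the relatives, the difference was called for Pycrl (-0.73 ± 0.17, adjusted p = 0.0159), Pepd (-0.84 ± 0.14, 0.00436) and, upwards, Slc25a15 (0.83 ± 0.13, 0.00352).

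iTregs were then set against nTregs within each genotype. In WT cells 6 of the 8 genes were higher in iTregs and 2 were lower, against 33.7% and 35.7% of all tested genes. The highest rise was that of Pycr1, from a mean of 0.593 ± 0.0778 CPM (SD, n = 3) in nTregs to 2.41 ± 0.614 in iTregs, or 2.02 ± 0.25 on the log2 scale (edgeR adjusted p = 1.31e-05). Gpt2 rose by 1.06 ± 0.23 (adjusted p = 0.00108), Aldh18a1 by 0.72 ± 0.08 (7.48e-06), Oat by 0.68 ± 0.07 (2.56e-06), Got1 by 0.66 ± 0.13 (0.000659) and Got2 by 0.64 ± 0.10 (0.000104). Glul fell by 0.23 ± 0.07 (adjusted p = 0.00851). Glud1 fell by 0.16 ± 0.07 (adjusted p = 0.046), and that call was lost without any WT nTreg library (1, 2 or 3; adjusted p = 0.102, 0.0743 and 0.081), iTreg WT library 1 (0.106) or 2 (0.132) or iTreg mutant library 2 (0.0645).

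In mutant cells 4 of the 8 genes were higher in iTregs and 0 were lower, against 33.2% and 35.0% of all tested genes. By library size alone, which shifted the median of all genes by -0.19, only Oat kept its call and Glul and Gpt2 fell. Oat rose by 0.61 ± 0.07 (edgeR adjusted p = 6.88e-06), Got2 by 0.36 ± 0.10 (0.00617), Aldh18a1 by 0.28 ± 0.08 (0.00994) and Pycr1 by 0.68 ± 0.24 (0.0237). Pycr1 lost its call without nTreg mutant library 1 (0.44, adjusted p = 0.134), iTreg mutant library 1 (0.66, 0.0558) or iTreg mutant library 4 (0.65, 0.0538), and Aldh18a1 without iTreg mutant library 1 (0.20, 0.0538). Got1 at 0.28 ± 0.13 did not pass (adjusted p = 0.0731), but without nTreg mutant library 1 it did (0.40, 0.00151). Gpt2 gave -0.41 ± 0.22 (adjusted p = 0.114), passing without iTreg WT library 3 (-0.41, 0.0383), and Glud1 gave 0.14 ± 0.07 (0.0885), passing without iTreg mutant library 4 (0.20, 0.0171). Glul gave -0.02 ± 0.07 (adjusted p = 0.847). The difference between the WT and the mutant step is the same quantity, in these 4 groups, as the difference between the genotype effects above. Some markers of other cells moved with the kind of Treg: summed B cell markers were 202.2 to 506.1 CPM in nTregs and 2.45 to 3.70 in iTregs, erythroid markers 110.8 to 883.4 and 0.0 to 0.108, and myeloid markers 20.4 to 48.8 and 2.22 to 8.56. Plasma cell markers, at 132.4 to 202.0 and 97.9 to 138.3, and platelet markers, at 1.26 to 1.96 and 1.32 to 2.29, overlapped. Of the 8 B cell markers tested, 8 were lower in iTregs of both genotypes. The part of these markers' cells in the nTreg values was not tested.

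**Figure D3:**
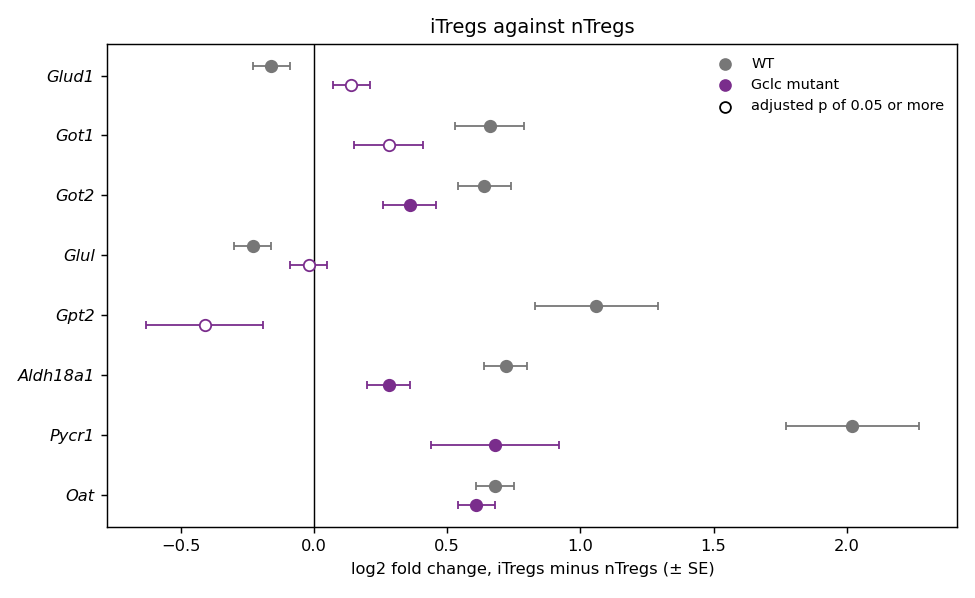
Log2 fold change of iTregs against nTregs for each of the 8 genes, with its SE, in WT and in mutant cells, from the same edgeR fit (open points did not pass at an adjusted p of 0.05). Pycr1 lies at 2.02 in WT and 0.68 in the mutant, and Oat at 0.68 and 0.61.

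Levels of different genes were compared per kilobase of exon. Glud1 was the highest of the 8 in all 4 groups, at 44.7 ± 0.701 CPM per kilobase (SD, n = 3) in WT nTregs, 44.0 ± 0.551 in mutant nTregs, 39.9 ± 1.53 in WT iTregs and 48.4 ± 4.48 in mutant iTregs. Oat came next, from 21.8 ± 0.458 in WT nTregs to 38.4 ± 1.26 in mutant iTregs. In mutant nTregs the level of Oat, at 25.1 ± 2.16, lay within the spread of Got2, at 24.0 ± 3.92. Aldh18a1 and Got2 were neighbours in WT iTregs, at 26.9 ± 1.83 and 23.5 ± 1.90, and their ranges of 1 SD overlapped. Got1 and Glul were neighbours that also overlapped in mutant nTregs (14.6 ± 3.30 and 14.9 ± 0.231) and in WT iTregs (16.8 ± 0.364 and 16.2 ± 0.886). Gpt2 and Pycr1 closed the order in every group, from 0.433 ± 0.0327 and 0.151 ± 0.0198 in WT nTregs to 0.905 ± 0.279 and 0.611 ± 0.156 in WT iTregs.

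On the same scale, members were set beside other genes for the same reaction, as a description without a test. Got2 made up 58.7% ± 1.20 of aspartate aminotransferase signal in WT nTregs and 62.3% ± 1.40 in mutant nTregs, with 58.3% ± 2.31 and 63.5% ± 1.59 in WT and mutant iTregs. Got1l1, the remaining relative, had at most 4 counts in a library and was not tested. Per kilobase of exon, Gpt2 was the minor alanine aminotransferase in each group: its share was 18.8% ± 1.65 in WT nTregs, 34.6% ± 8.76 in mutant nTregs, 31.2% ± 9.19 in WT iTregs and 29.2% ± 2.57 in mutant iTregs. The mutant nTreg share ranged from 29.1% to 44.7%, above all WT nTreg libraries. The order of Gpt and Gpt2 rests on their exon lengths, 1749 and 5643 bases. In CPM, Gpt2 was lower than Gpt in WT nTregs (2.44 against 3.28). It was higher in mutant nTregs (4.61 against 2.8), WT iTregs (5.11 against 3.48) and mutant iTregs (3.46 against 2.62). Pycr1 lay far below the reductase gene Pycrl in every group, at 0.151 ± 0.0198, 0.23 ± 0.0487, 0.611 ± 0.156 and 0.37 ± 0.0235 CPM per kilobase in the same order of groups. Pycrl lay at 5.88 ± 0.523, 7.91 ± 0.612, 10.3 ± 0.719 and 8.35 ± 1.21.

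**Figure D4:**
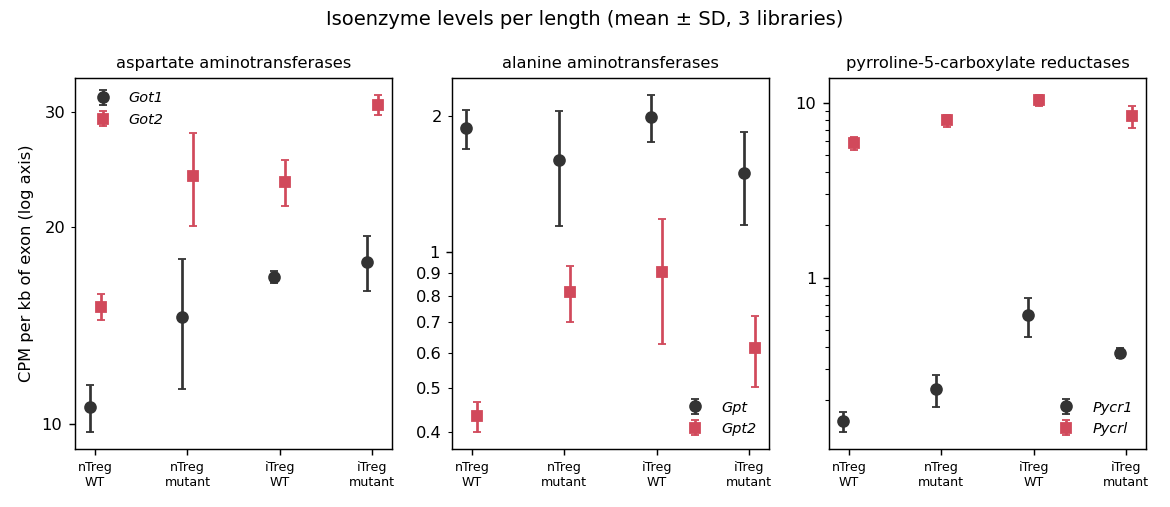
Group mean level of enzymes and isoenzymes in CPM per kilobase of exon, on log axes that differ between panels, with the SD over 3 libraries, for aspartate aminotransferases, alanine aminotransferases and pyrroline-5-carboxylate reductases. On this scale Gpt lies above Gpt2 and Pycrl above Pycr1 in every group.

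A wider list of 61 genes that use or make glutamate, glutamine, proline or ornithine was arranged by role and not by change. It was written with earlier results of these data known, and 60 of its genes were in the counts and 47 tested. In nTregs 18 of the 47 rose and 3 fell, where 19.3% and 15.6% of all tested genes did. In iTregs 16 rose and 5 fell, where 14.0% and 11.4% of all tested genes did. The 16 that rose in iTregs became 6 without iTreg WT library 1 and 9 without iTreg WT library 2, iTreg mutant library 1 or iTreg mutant library 2. The 5 that fell became 3 without iTreg WT library 1 or iTreg mutant library 1 and 9 without nTreg mutant library 1. Medians were 0.21 and 0.11, beside 0.04 over all tested genes in each comparison. Among the 14 genes that use the amide nitrogen of glutamine or release it, 7 rose and 1 fell in nTregs, and 7 rose and 0 fell in iTregs, to be read against the same shares of all tested genes. Asns, asparagine synthetase, showed the largest nTreg rise of the list: 2.51, 2.69 and 1.61 CPM in WT and 21.5, 17.7 and 18.6 in the mutant, which is 3.09 ± 0.16 on the log2 scale (edgeR adjusted p = 2.07e-06). In iTregs it rose by 0.55 ± 0.14 (adjusted p = 0.0153), lost without iTreg WT library 1 (0.49, adjusted p = 0.079), and the difference was -2.53 ± 0.21 (adjusted p = 0.000292). Cad, which starts pyrimidine synthesis, rose in nTregs by 0.67 ± 0.12 (adjusted p = 0.00162) and gave -0.12 ± 0.12 in iTregs (0.498). Without nTreg mutant library 1 the nTreg rises were 3.03 for Asns and 0.52 for Cad (edgeR adjusted p = 2.1e-06 and 0.000999). Gfpt2, of the hexosamine pathway, gave -0.18 ± 0.36 in nTregs (adjusted p = 0.733) and rose by 1.72 ± 0.33 in iTregs (0.00424).

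Of 7 other aminotransferases tested, 3 rose and 1 fell in nTregs, and 2 rose and 1 fell in iTregs, again beside 19.3% and 15.6%, and 14.0% and 11.4%, of all tested genes. Psat1, the glutamate-dependent step of serine synthesis, rose by 1.03 ± 0.09 in nTregs (edgeR adjusted p = 6.56e-05) and by 0.38 ± 0.09 in iTregs (0.0107), the latter lost without iTreg WT library 1 (0.34, adjusted p = 0.0613). Bcat1, the cytosolic branched-chain aminotransferase, rose by 1.37 ± 0.15 in nTregs (adjusted p = 0.000181) and gave 0.27 ± 0.14 in iTregs (0.186). Without nTreg mutant library 1 the nTreg rises were 0.94 for Psat1 and 1.2 for Bcat1 (edgeR adjusted p = 9.47e-06 and 5.37e-05). Among 4 ornithine and arginine genes tested, Odc1, the first enzyme of polyamine synthesis, rose in both kinds of Treg, and the other 3 passed in neither. In nTregs Odc1 lay at 108.8, 112.6 and 91.8 CPM in WT cells. The mutant nTreg values were 315.6 CPM in library 1, and 175.7 and 170.4 in libraries 2 and 4. The 5 tested genes of glutamate and GABA side routes gave 0 calls in nTregs, while in iTregs Gad2, with 4 to 29 counts in an iTreg library, rose and Oplah, which returns glutamate from oxoproline, fell. In the branch to glutathione, Gclm and Gss rose in nTregs and neither passed in iTregs, and Gclc fell in both. Gclm lay at 124.9, 127.3 and 166.1 CPM in WT nTregs and at 239.8, 179.3 and 170.2 in mutant nTregs. Gss lay at 5.29, 5.22 and 5.02 CPM in WT nTregs and at 9.61, 6.98 and 7.09 in mutant nTregs. Mutant library 1 was the highest for both Gclm and Gss. The calls of these small roles too stand beside the same shares of all tested genes. The test of the difference called 2 of the 47 higher and 8 lower in iTregs, where 6.12% of all tested genes were called higher and 7.18% lower. The 2 became 1 without iTreg WT library 1 or 2, iTreg mutant library 1 or nTreg WT library 2 or 3, and the 8 became 13 without nTreg mutant library 1.

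**Figure D5:**
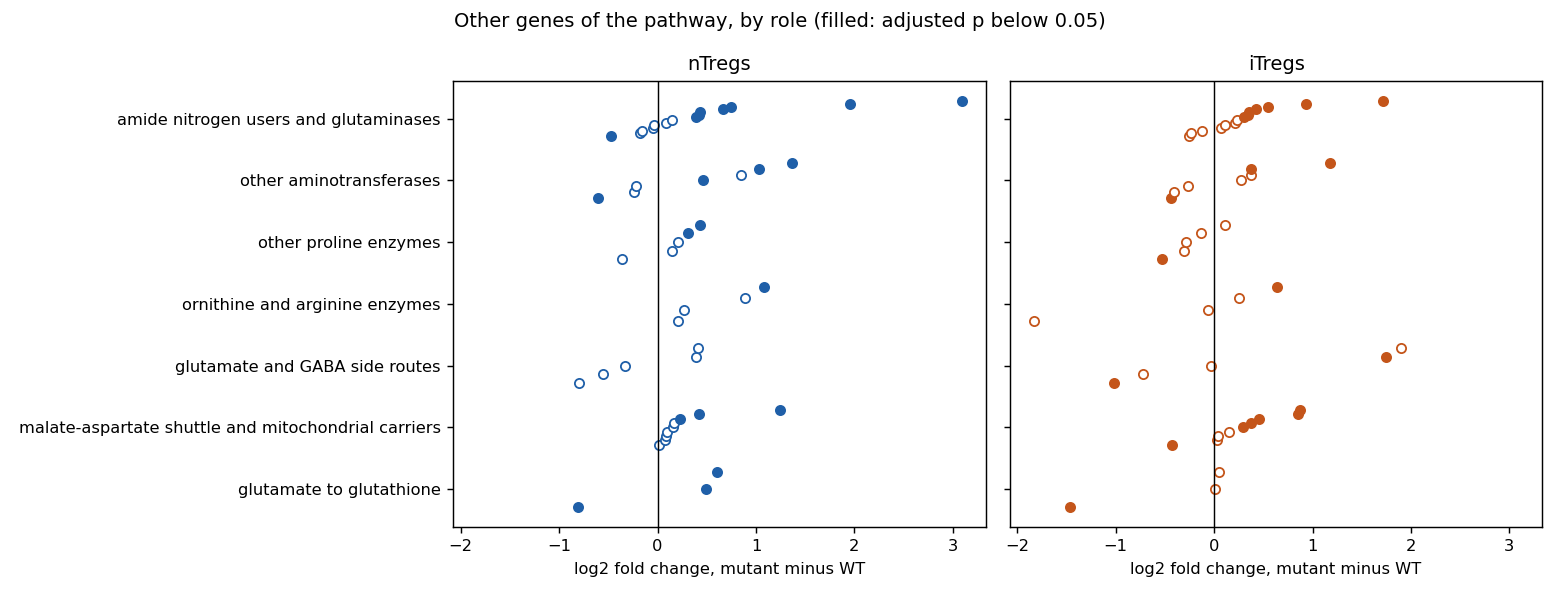
Log2 fold change of mutant against WT for each tested gene of the wider list, grouped by role, in nTregs (left) and iTregs (right) on the same axis, with filled points for an adjusted p below 0.05. The point far to the right in nTregs is Asns at 3.09, which lies at 0.55 in iTregs.

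For members whose group means spanned at least 1 log2 unit, Got2 (1.03) and Pycr1 (1.89), the most similar genes were sought among 9728 with enough signal, by the root mean square difference of centred log2 CPM over the 12 libraries. Nearest to Got2 were Mrpl13, a mitochondrial ribosomal protein gene, at 0.05, the fumarase gene Fh1 at 0.07 and the pyruvate dehydrogenase kinase gene Pdk3 at 0.08. Nearest to Pycr1 were the kinase gene Pim2 at 0.23, the chemokine receptor gene Ccr7 at 0.25 and the chromobox gene Cbx2 at 0.25. The 12 libraries share groups and scaling, so this likeness is a description.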

How the data were processed

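Integer gene counts deposited for each of the 12 libraries were used unchanged. Per the file headers, the authors made these counts with featureCounts 1.5.2 from exons of Ensembl release 87 (GRCm38), reverse-stranded, giving a read to the gene of largest overlap and leaving out chimeric fragments; a read with several alignments was counted at all of them. The submitters' processing notes name bcl2fastq 2.18.0.12, STAR 2.5.2b, Subread 1.5.2 and mm10, and the labels' protocols the TruSeq Stranded mRNA kit. Trimming and read length are not stated there.

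Symbols were matched for 49326 of 49671 genes. edgeR 4.0.16 (R 4.3.3) was run on the counts with filterByExpr, TMM scaling, 1 mean per group over all 12 libraries (8 residual degrees of freedom) and two-sided quasi-likelihood tests, with Benjamini-Hochberg adjustment over 17977 genes within each of 5 comparisons and a threshold of 0.05. Comparisons share libraries. Each SE comes from the F statistic. The fit was tested on simulated data. No library duplicated another of its own group: chi-square per degree of freedom within groups was 4.48 to 51.5. Libraries of different groups were not compared in this way. Members and lists were chosen with earlier results of these data known. Members, Gclc, Foxp3 and close relatives of members were named whatever their values; from each role of the wider list, up to 4 genes that passed in a comparison, with the smallest adjusted p, could be named with values. Alternatives were scaling by RLE or by library size only, DESeq2 1.42.0, omitting the filter on low counts, a filter of 1 CPM in 3 libraries, fits to the compared libraries only, a block for replicate number, and leaving out each library. Some genes of the wider list are not reported here.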

Additional observations from a re-analysis of the deposited data

Results flagged for a closer look

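The effect of genotype was compared between iTregs and nTregs by edgeR's test of the difference itself (iTreg effect minus nTreg effect, log2, adjusted p below 0.05). That test called 6.12% of all tested genes higher and 7.18% lower. It called 13 genes among the 8 members and the 47 tested genes of the wider list, Gclc included. Of the 8 members these were Gpt2 (-1.48), Pycr1 (-1.34) and Aldh18a1 (-0.44), which were all higher in mutant than in WT nTregs by value and lower by value in iTregs. Among amide nitrogen users they were Asns (-2.53), Cad (-0.79) and Gfpt2 (1.89), and among aminotransferases Psat1 (-0.65) and Bcat1 (-1.10). Proline enzymes on the list were Pycrl (-0.73) and Pepd (-0.84), carriers were Slc25a22 (-0.51) and Slc25a15 (0.83), and Gclc itself differed by -0.65. The Gfpt2 call was lost without iTreg mutant library 1 (adjusted p = 0.0576), iTreg WT library 1 (0.0563) or 2 (0.0658) or nTreg WT library 2 (0.0614) or 3 (0.0541), and the Slc25a22 call without any of 9 libraries. Groups of 3 libraries are too small for a test of single outlying samples.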

How the results depend on the processing

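Over the 5 comparisons, single-gene values under the alternatives kept direction and side of the threshold in 1521 cases, lost a call in 87, gained one in 29 and changed sign in 15. The sign changes were in uncalled values: in nTregs Glud1 (0.02 by library size alone, 0.02 with the block, -0.06 to 0.01 with a library left out), and, with a library left out, Gpt (-0.47 to 0.0), Prodh (-0.02 to 0.27), Slc25a15 (-0.03 to 0.05) and Gfpt2 (-0.5 to 0.12); in iTregs Got1 (-0.01 by library size alone) and Prodh (-0.15 to 0.3 with a library left out); and between mutant iTregs and nTregs Glud1 (-0.05 by library size alone) and Glul (-0.11 to 0.01 with a library left out). Scaling by library size alone called 3 members lower in iTregs, 9 listed genes lower and 1606 genes higher in all; for the difference it called 14 listed genes lower, 518 genes higher and 2393 lower; and between mutant iTregs and nTregs 1 member higher and 2 lower, with 36.0% of calls higher against 48.7%. A filter of 1 CPM in 3 libraries called 3 members and 9 listed genes lower in iTregs. The compared libraries alone gave 3 members higher in nTregs, and 2 members and 8 listed genes lower in iTregs. DESeq2 gave 5 listed genes lower in nTregs and 1 member higher for the difference (Glud1, 0.31). Without a filter 1 member was lower in WT iTregs than WT nTregs. Between mutant iTregs and nTregs Aldh18a1 lost its call on the compared libraries alone (0.0578) and Pycr1 by DESeq2 (0.0549). The cause of these moves was not tested.

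The labels do not say what a shared replicate number means. Deviations of same-numbered libraries from their group means correlated between -0.127 and 0.067 over 10 pairs. Whether same-numbered libraries share an animal or a culture was not tested. With the replicate number as a block, nTregs gave 4 members higher and 1 lower (Oat lost its call, adjusted p = 0.0959; so did Pycrl, 0.0719, and Pepd, 0.0588), iTregs 10 listed genes higher (Asns lost its call, 0.45, 0.091), 1677 genes higher and 1359 lower in all, the difference 650 higher and 821 lower (Slc25a22 lost its call, 0.0549), and WT iTregs against nTregs 1 member lower (Glud1 lost its call, 0.0677), while Got1 gained one between mutant iTregs and nTregs (0.0486).

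With each library left out, members called higher and lower ranged from 2 to 6 and 1 to 1 in nTregs, 0 to 2 and 0 to 3 in iTregs, 0 to 1 and 1 to 3 for the difference, 6 to 6 and 1 to 2 in WT iTregs against nTregs, and 2 to 4 and 0 to 1 in the mutant. Listed genes ranged from 14 to 21 and 3 to 5, 6 to 17 and 3 to 9, and 1 to 3 and 7 to 13 in the first 3 comparisons. All tested genes ranged from 2485 to 3610 and 2003 to 3056 in nTregs, 773 to 3164 and 997 to 3096 in iTregs, and 494 to 1310 and 610 to 2146 for the difference. The 2 nTreg members came without nTreg WT library 3. The lowest iTreg counts over all genes came without iTreg WT library 1, and the highest without nTreg mutant library 1. Of the 8 members depth limits Pycr1 most, with 17 counts in its lowest library; Prodh had 12, Gls2 6 and Gad2 0 in theirs.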
